A study of Mus musculus with 12 samples.

Results

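The genes described here are those named for the Sec and COP machinery of the secretory pathway, and they were selected by symbol: Sec followed by a number, the COPI subunits Copa, Copb1, Copb2, Copg1, Copg2, Copz1, Cope and Arcn1, the GTPases Sar1a and Sar1b, and Tmed followed by a number, with pseudogene symbols left out. The rule found 50 genes among 55964 gene IDs of the liver and macrophage tables. It uses no threshold on a value, but the group was chosen by what earlier results of the same libraries had shown in both comparisons, so the counts and medians over the group are descriptions and support nothing by themselves. By role, 14 genes belong to the COPII coat, 8 to the COPI coat, 11 to the p24 family (Tmed), 6 to the translocon and 2 to the signal peptidase. The Sec22 genes number 3 and the Sec14-like genes 5. The remaining gene, Sec1, encodes a fucosyltransferase and shares only its symbol with the rest. The Sec14-like genes encode lipid-binding proteins and are likewise members by symbol, not parts of a coat.

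Proteins that will be secreted or placed in membranes enter the endoplasmic reticulum (ER) through the Sec61 channel, and the signal peptidase removes their signal peptides. COPII coats then carry cargo from ER exit sites towards the Golgi: the GTPase Sar1 recruits the inner coat of Sec23 and Sec24, in which Sec24 binds cargo and Sec23 stimulates Sar1, and the outer coat of Sec13 and Sec31 closes the bud. COPI coats bring escaped ER proteins back, and the p24 proteins travel in both kinds of vesicle as cargo receptors. Hepatocytes secrete most plasma proteins, including the acute phase proteins, and stimulated macrophages secrete cytokines.

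Poly(A) RNA of C57BL/6 mice was sequenced in 12 libraries, 3 in each of 4 groups: untreated liver, liver taken 2 h after lipopolysaccharide (LPS, a bacterial product that activates toll-like receptors), peritoneal macrophages carrying a control hairpin (shNC), and peritoneal macrophages carrying a hairpin that targets Gm26917, a long non-coding RNA (shGm26917). In the sample titles the untreated livers are called WT (wild type), and the other titles give no genotype. Both macrophage groups received their hairpin by lentivirus for 72 h and then LPS for 2 h, so no macrophage library was unstimulated. The liver comparison asks how LPS alters the liver transcriptome, and the macrophage comparison what the Gm26917 hairpin alters in LPS-treated cells. The animals' age, the LPS dose, the number of animals behind a library and the transduced share of the macrophages are not given in the labels. Nothing in them says that replicates came from separate animals or cultures, so p-values measure the spread between these libraries, which may be technical.

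Libraries held 17322800 to 20914000 counts in liver and 15605300 to 18062900 in macrophages (rounded to 6 digits). The target of the hairpin, Gm26917, was not analysed here in macrophages and so gives no check of their labels. Hepatocyte genes such as Alb, Ttr and Apoa1 dominated the liver markers, with a summed level of 58600 to 122000 CPM (counts scaled to a common library size) in every library. In the macrophage libraries all 8 hepatocyte markers were below 0.5 CPM, with Ttr, Cps1 and Serpina1c at 0, and the 8 monocyte and macrophage markers summed to at least 8984 CPM. The TMM factors, which rescale library sizes so that most genes keep their level, separated the groups: 1.07 to 1.27 in untreated and 0.845 to 0.881 in LPS-treated liver, and 0.863 to 0.958 with shNC and 1.09 to 1.12 with shGm26917. Scaling by library totals alone in place of TMM moved the median log2 fold change over all tested genes from -0.06 to -0.49 in liver and from 0.00 to 0.29 in macrophages, so the counts are given under both scalings and members whose call differs between them are named. Changes under library totals are best read against these medians. Levels below are CPM on TMM-scaled library sizes unless stated, and a gene is called higher or lower at an adjusted p under 0.05 in edgeR's quasi-likelihood test. In bulk samples, fewer cells of a type and less RNA per cell cannot be told apart.

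The promoters of Sec23a, Sec23b, Sec22b and Sec22c are shown because these paralogs moved in opposite directions in liver and their balance differed between tissues. Each sequence runs 5′ to 3′ on the strand of the gene, from 250 bases before the start site to 50 bases of transcript, taken from RefSeq on GRCm38.p6. Capitals mark the core of the unfolded protein response element, TGACGTGG, read on either strand, a sequence bound by the ER stress factor XBP1 and by ATF6.

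Sec23a promoter, chr12:59011968-59012267, minus strand: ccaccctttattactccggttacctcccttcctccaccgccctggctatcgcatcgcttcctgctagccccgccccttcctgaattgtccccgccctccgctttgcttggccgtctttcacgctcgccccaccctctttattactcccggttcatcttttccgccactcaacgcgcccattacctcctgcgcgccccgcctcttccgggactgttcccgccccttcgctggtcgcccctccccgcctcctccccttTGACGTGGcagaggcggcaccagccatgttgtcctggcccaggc

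Sec23b promoter, chr2:144555979-144556278, plus strand: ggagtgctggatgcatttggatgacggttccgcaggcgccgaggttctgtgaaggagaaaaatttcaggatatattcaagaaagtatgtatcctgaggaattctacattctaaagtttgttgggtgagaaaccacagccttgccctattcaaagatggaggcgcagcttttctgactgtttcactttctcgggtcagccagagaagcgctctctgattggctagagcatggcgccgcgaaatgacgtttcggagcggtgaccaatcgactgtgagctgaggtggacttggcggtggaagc

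Sec22b promoter, chr3:97900977-97901276, plus strand: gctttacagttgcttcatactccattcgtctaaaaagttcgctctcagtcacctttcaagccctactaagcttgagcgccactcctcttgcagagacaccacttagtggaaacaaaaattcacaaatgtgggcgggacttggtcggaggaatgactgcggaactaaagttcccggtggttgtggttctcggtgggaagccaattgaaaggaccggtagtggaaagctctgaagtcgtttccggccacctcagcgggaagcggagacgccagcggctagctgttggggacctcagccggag

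Sec22c promoter, chr9:121704980-121705279, minus strand: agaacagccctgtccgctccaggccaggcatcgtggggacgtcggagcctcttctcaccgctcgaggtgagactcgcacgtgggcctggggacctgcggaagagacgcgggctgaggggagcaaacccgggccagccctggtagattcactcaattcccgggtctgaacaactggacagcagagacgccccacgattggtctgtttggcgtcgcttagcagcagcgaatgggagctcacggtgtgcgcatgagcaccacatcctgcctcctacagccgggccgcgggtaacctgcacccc

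The element TGACGTGG was present in the Sec23a promoter, starting at base 7 when the start site is counted as base 1, and absent from these windows of Sec23b, Sec22b and Sec22c. Sec23b has a further start in RefSeq, whose window also lacks it. Promoters were found for 43 of the 50 members, 48 windows in all, and 5 windows held the element, or 10.4%, against 0.676% of all 32851 promoters of the same 300 bases. The other 4 belong to Sec24d, Copb1, Copb2 and Sec16b, and 60 bases around the match are shown for each to display how close it lies to the start site.

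Sec24d window, chr3:123267444-123267503, plus strand: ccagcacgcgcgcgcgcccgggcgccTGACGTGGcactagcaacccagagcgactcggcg

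Copb1 window, chr7:114254675-114254734, minus strand: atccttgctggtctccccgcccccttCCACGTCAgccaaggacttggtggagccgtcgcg

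Copb2 window, chr9:98563698-98563757, plus strand: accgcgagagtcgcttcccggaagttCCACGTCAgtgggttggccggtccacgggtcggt

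Sec16b window, chr1:157506726-157506785, plus strand: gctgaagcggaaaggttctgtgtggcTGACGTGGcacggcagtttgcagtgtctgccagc

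The match began 26 bases before the start site in Sec24d, 28 in Copb1, 7 in Copb2 and 44 in Sec16b. It lay on the opposite strand in Copb1 and Copb2, where it reads CCACGTCA. Sec16b, like Sec23b, has a further start in RefSeq, and the window of that start lacks the element. Of 2 further ER stress elements searched on both strands, ERSE (CCAAT, 9 bases of any kind, CCACG) occurs in 0.119% of all promoters and ERSE-II (ATTGG, 1 base of any kind, CCACG) in 0.0365%, and neither occurs in a member's window. The CCACG of both elements is also the first part of CCACGTCA, so matches could overlap. Under TMM scaling, in liver Sec16b and Sec23a fell and Sec24d, Copb1 and Copb2 were not called, while with library totals Copb1 was called lower as well (log2 fold change -0.84, adjusted p 0.0195). In macrophages Sec23a and Sec24d fell, Copb1 and Copb2 were not called and Sec16b was not tested. A match is a description of the letters only.

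In liver 2 h after LPS, the Sec23 and Sec22 families changed composition, and most coat subunits did not pass the test. Sec23b rose 3.27-fold while its paralog Sec23a fell 1.79-fold, and Sec22b rose 2.22-fold while Sec22c fell 5.28-fold. Sec61g, the small gamma subunit of the Sec61 channel, rose 2.61-fold. Of 45 members with enough counts to be tested, 9 were called higher and 6 lower, beside 23.3% higher and 22.1% lower of all 13869 genes tested. The counts are those of a group chosen with these results known and are not independent evidence of a direction. Sec1, Sec14l3, Sec14l5, Tmed6 and Tmed11 were below the filter. With library totals, 4 members were higher and 15 lower, beside 14.0% and 38.3% of all genes. The median log2 fold change of the tested members was -0.00, or -0.44 with library totals, beside -0.06 and -0.49 for all genes. The groups did not overlap for 18 tested members, beside 57.8% of all genes.

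The inner coat of COPII showed the plainest exchange. Sec23b, the paralog whose loss in humans causes a congenital anaemia, was at 18.9, 22 and 18.0 CPM in untreated liver and at 50.6, 75.0 and 66.9 CPM after LPS. Every LPS library was above every untreated one, and the level went from 19.6 ± 2.11 to 64.2 ± 12.4 CPM (mean ± SD, n = 3; log2 fold change 1.71, SE 0.20, adjusted p 0.000271). Sec23a was at 111, 87.2 and 65.3 CPM in untreated liver and at 46.7, 46.3 and 54.0 CPM after LPS. Its groups did not overlap either, but the untreated libraries spread widely, and the log2 fold change of -0.84 (SE 0.22, adjusted p 0.0141) was not called without LPS replicate 2 (adjusted p 0.0601). Within each library, where scaling cancels, Sec23b counts per Sec23a count were 0.171, 0.252 and 0.275 in untreated liver and 1.08, 1.62 and 1.24 after LPS. Per kb of exon, Sec23b made up 11.6%, 16.2% and 17.4% of the Sec23 level in untreated liver and 45.4%, 55.4% and 48.8% after LPS. The longest coding sequences of the pair align with 75.5% identical bases and share no run longer than 20 bases.

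Among the other COPII genes, Sec23ip, whose product binds Sec23 at exit sites, was at 15.5, 15.0 and 15.7 CPM in untreated liver and at 32.4, 40.2 and 37.2 CPM after LPS. The groups lay far apart compared with their spread (log2 fold change 1.25, SE 0.16, adjusted p 0.000483). Sec16b, one of the 2 scaffold proteins of exit sites, fell from 101, 80.4 and 54.1 CPM to 40.8, 34.3 and 39.4 CPM, without overlap (log2 fold change -1.04, SE 0.24, adjusted p 0.00801). Its larger paralog Sec16a was at 104, 71.4 and 71.6 CPM against 53.1, 70.7 and 72.8 CPM, with overlapping groups (log2 fold change -0.33, adjusted p 0.257). Sec24b, a cargo-binding subunit, rose 1.70-fold (adjusted p 0.0148) and Sar1a 1.43-fold (adjusted p 0.0314). With library totals neither was called, with log2 fold changes of 0.33 and 0.09 (adjusted p 0.237 and 0.641). Neither call held in every fit that left out 1 library: Sec24b was lost without untreated replicate 2 (adjusted p 0.0549), and Sar1a without untreated replicate 1 or 2 or LPS replicate 2 or 3 (highest adjusted p 0.102). The other 8 tested COPII genes, Sar1b, Sec13, Sec16a, Sec24a, Sec24c, Sec24d, Sec31a and Sec31b, had log2 fold changes from -0.82 to 0.34 and adjusted p of at least 0.156. With library totals Sec16a, Sec24a and Sec31a were called lower (log2 fold changes -0.78, -0.76 and -0.57, adjusted p 0.0288, 0.0358 and 0.0276). The cargo-binding Sec24d, for example, was at 70.1, 61.7 and 42.1 CPM against 50, 56.9 and 70.1 CPM, with full overlap. Sec31b, the least abundant of them, was called lower (log2 fold change -1.49, adjusted p 0.0128) when LPS replicate 1 was left out. Sar1b was the COPII gene of highest level per kb in liver, at 142, 156 and 246 CPM untreated and 136, 205 and 193 CPM after LPS, with wide overlap.

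Of the Sec22 genes, Sec22b is the SNARE that fuses vesicles between ER and Golgi, and Sec22a and Sec22c are related proteins with the same kind of N-terminal domain. Sec22b was at 34.1, 31.4 and 29.3 CPM in untreated liver and at 61.5, 78.3 and 71.0 CPM after LPS, and no LPS library came near an untreated one (log2 fold change 1.15, SE 0.17, adjusted p 0.000896). Sec22c went the other way, from 15.3, 11.9 and 19.0 CPM to 2.76, 3.55 and 2.40 CPM (log2 fold change -2.40, SE 0.26, adjusted p 0.000178). It was the largest change of a tested member in liver under both scalings. Sec22a rose from 9.74, 10.8 and 9.81 CPM to 17.2, 18.0 and 17.8 CPM (log2 fold change 0.80, SE 0.16, adjusted p 0.00478), but with library totals it was not called (log2 fold change 0.37, adjusted p 0.0918). Per kb of exon, Sec22c held 19.3%, 16.3% and 25.2% of the Sec22 level in untreated liver and 2.35%, 2.45% and 1.82% after LPS. Sec22b counts per Sec22c count went from 2.23, 2.65 and 1.54 to 22.3, 22.1 and 29.5.

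**Figure D1:**
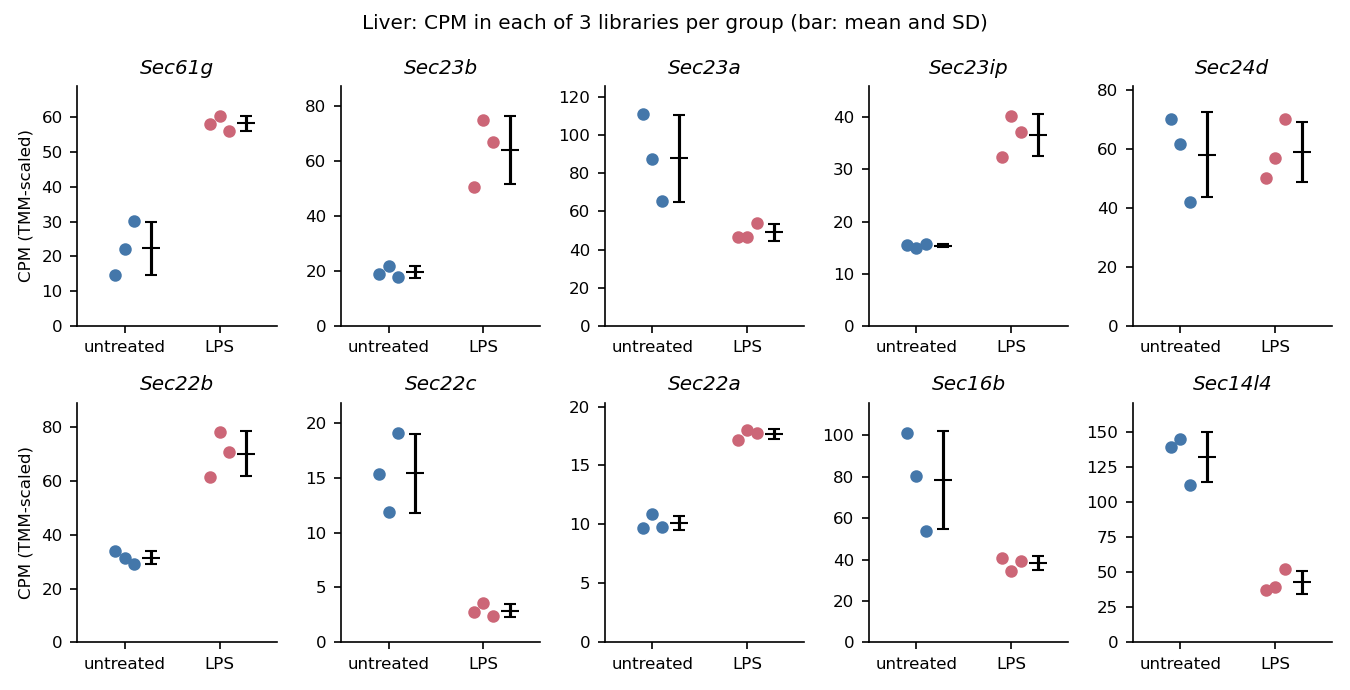
Levels of 10 members in the liver libraries, in CPM on TMM-scaled sizes, with 1 point per library and the mean and SD of 3 libraries beside each group. Sec61g, Sec23b, Sec23ip, Sec22a and Sec22b lie higher in all LPS libraries than in any untreated one, Sec23a, Sec22c, Sec16b and Sec14l4 lie lower, and the groups of Sec24d overlap.

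At the translocon, Sec61g was at 14.7, 22.1 and 30.1 CPM in untreated liver and at 58.1, 60.4 and 56.2 CPM after LPS. The untreated libraries differed among themselves, yet all stayed below the LPS libraries (log2 fold change 1.39, SE 0.25, adjusted p 0.00272). Sec61b, the beta subunit, was at 18.3, 41.8 and 41.8 CPM against 51.0, 52.3 and 53.3 CPM, without overlap but not called (log2 fold change 0.62, SE 0.29, adjusted p 0.116). The channel-forming Sec61a1 was at 67.0, 77.8 and 64.2 CPM against 35.9, 76.3 and 72.1 CPM, overlapping, with LPS replicate 1 low (log2 fold change -0.18, adjusted p 0.623). Sec62 and Sec63, which assist the channel, and Sec61a2 were not called, and neither were Sec11a and Sec11c of the signal peptidase (log2 fold changes 0.08 and 0.71). Sec62 was at 149.8, 144 and 124 CPM against 94.3, 110.1 and 107 CPM, without overlap, and was called lower with library totals (log2 fold change -0.86, adjusted p 0.00574) and when all 12 libraries were fitted together.

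Of the 8 COPI subunits among the members, 1 rose and 1 fell. Copz2, which the rule does not include, was called higher too (log2 fold change 0.52, adjusted p 0.0358). With library totals Copz2 was not called (log2 fold change 0.09, adjusted p 0.693). Cope, the epsilon subunit, was at 64.9, 80.9 and 73.9 CPM and then at 106, 107 and 118 CPM (log2 fold change 0.59, SE 0.17, adjusted p 0.0227), a call lost with library totals (log2 fold change 0.17, adjusted p 0.386) and without untreated replicate 1, LPS replicate 2 or LPS replicate 3 (adjusted p up to 0.0917). Copg2, a gamma subunit, fell from 21.4, 24.6 and 19.7 CPM to 8.84, 11.1 and 13.2 CPM (log2 fold change -0.99, SE 0.20, adjusted p 0.00485), while Copg1 was at 41.2 ± 7.77 and 46.3 ± 8.53 CPM and was not called. Copg2 thus went from 49.0%, 55.1% and 56.4% of the Copg level per kb to 34.2%, 32.3% and 35.2%. The size of these shares depends on the annotated exon lengths, 11011 bases for Copg1 and 5121 for Copg2. Their longest coding sequences are nearly equal, at 2625 and 2616 bases. Exons of Mest on the opposite strand overlap 17.8% of the Copg2 exon length, and the labels do not say whether counting used strand, so reads of the 2 genes may be shared. The other 6 subunits had log2 fold changes from -0.39 to 0.17 and adjusted p of at least 0.17. With library totals Arcn1 and Copb1 among them were called lower (log2 fold changes -0.77 and -0.84, adjusted p 0.0134 and 0.0195). In the p24 family Tmed3 rose 1.65-fold and Tmed8 fell 1.73-fold at low levels (means of 9.44 and 15.5 CPM, and 4.10 and 2.36 CPM). These calls were close to the threshold (adjusted p 0.0484 and 0.0347), DESeq2 called neither, and the Tmed3 call was lost with library totals (log2 fold change 0.31, adjusted p 0.293) and without untreated replicate 1 or 3 or LPS replicate 2 or 3 and the Tmed8 call when any single library other than untreated replicate 2 was left out. The remaining 7 tested p24 genes had log2 fold changes from -0.54 to 0.62. Tmed2, the p24 gene of highest level per kb in liver, was at 110.0, 136 and 117 CPM against 90.2, 136 and 131 CPM, and Tmed5 was at 222, 160.1 and 156 CPM against 276, 191 and 242 CPM, both with overlapping groups. Tmed9 (log2 fold change 0.62) was called higher without untreated replicate 2 or LPS replicate 1, and Tmed1 (-0.54) was called lower without untreated replicate 1 and with library totals (log2 fold change -0.95, adjusted p 0.0107).

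Sec14l2, also called supernatant protein factor, was the member of highest level per kb in untreated liver, at 181 ± 23.3 CPM per kb, ahead of Sar1b at 145 ± 45.0 CPM per kb. The spread of these neighbours overlaps. After LPS the order was Sar1b at 142 ± 29.5 and Sec14l2 at 139 ± 14.9 CPM per kb, again within their spread, and the next gene, Tmed2, was at 47.2 ± 10.0 CPM per kb. Sec14l2 was at 543, 702 and 655 CPM against 428, 499.6 and 529.7 CPM, without overlap but not called (log2 fold change -0.38, adjusted p 0.185), and it was called with library totals (log2 fold change -0.80, adjusted p 0.0084). Sec14l4 fell from 139, 145 and 112 CPM to 37.0, 39.4 and 52.4 CPM (log2 fold change -1.62, SE 0.21, adjusted p 0.00046), and it was called under every setting tried. Sec14l1 was at 7.51, 7.37 and 14.3 CPM against 6.27, 8.27 and 5.89 CPM, with overlapping groups, and was not called, but it was called lower with library totals (log2 fold change -0.94, adjusted p 0.0328). Sec1, below the filter, had 0, 0 and 2 counts in untreated liver and 12, 7 and 13 after LPS. DESeq2, which tested it, gave a log2 fold change of 4.45 (SE 1.36, adjusted p 0.00464), a fitted value that depends on very few control counts. Exons of Ntn5 on the opposite strand cover 21% of the Sec1 exon length.

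Called in all 6 fits that left out 1 liver library and under both scalings were Sec22b, Sec23b, Sec23ip and Sec61g, higher, and Copg2, Sec14l4, Sec16b and Sec22c, lower. Markers of other cells moved with the same contrast. The 8 neutrophil markers summed to 2.59 to 8.03 CPM in untreated and 222 to 310.0 CPM in LPS-treated liver, with 7 of 7 tested called higher. Erythroid markers summed to 135 to 229 and 483 to 887 CPM. The 8 hepatocyte markers summed to 79700 to 122000 and 58600 to 93280 CPM, with 1 higher and 1 lower. Their part in the members' changes was not tested.

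In the macrophages, most called members were lower with the Gm26917 hairpin, across the translocon and both coats. Sec61a1 fell 2.33-fold, Sec23b 2.62-fold, Tmed5 2.10-fold and Sec24d 2.01-fold, while Sec22c rose 2.46-fold. Of 43 tested members, 2 were higher and 17 lower, beside 12.6% higher and 11.1% lower of all 12876 genes. The counts describe a group chosen with these results known. With library totals, 6 members were higher and 6 lower, beside 24.3% and 6.17% of all genes. The median of the tested members was -0.36 on the log2 scale, or -0.063 with library totals, beside 0.00 and 0.29 for all genes. A change of scaling moves every gene by nearly the same amount. The gap between these medians is therefore bound to be similar under both scalings, which adds no support. The groups did not overlap for 30 tested members, beside 45.9% of all genes. The summed level of all members was 5105 to 6511 CPM with shNC and 4070.0 to 4226 CPM with shGm26917, without overlap. With library totals the sums were 4555 to 5615 and 4559 to 4596 CPM, which overlap.

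The count of lower members depended on single libraries. It was 5, 2 and 2 without shGm26917 replicate 1, 2 and 3, and 8, 26 and 7 without shNC replicate 1, 2 and 3. The number of all genes called moved as well, from 3049 to 1341, 839 and 978 without a shGm26917 library and to 2129, 5236 and 1679 without an shNC library. Among the shNC libraries, replicate 2 was the lowest for Sec61a1, Sec23b, Sec24d, Tmed5, Sec22b and Sec61g. Called in all 6 such fits were Sec61a1, lower, and Sec22c, higher. DESeq2 called 20 members lower, among them all 17 of the edgeR calls, and 2 higher. The others it called lower were Copb1, Copb2 and Sec61b (DESeq2 adjusted p 0.0412, 0.033 and 0.0476).

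Sec61a1 was at 394, 368 and 523 CPM with shNC and at 186, 183 and 182 CPM with shGm26917. The shGm26917 libraries were nearly equal and all far below the shNC libraries (log2 fold change -1.22, SE 0.17, adjusted p 0.00584, and -0.93, adjusted p 0.00677 with library totals). Sec61a2, its minor paralog, was at 12.9, 9.93 and 12.1 CPM against 9.78, 8.60 and 8.62 CPM and was not called (log2 fold change -0.37, adjusted p 0.147), with exons of Nudt5 on the opposite strand over 19.9% of its exon length. Sec61g fell from 12.1, 8.38 and 14.0 CPM to 6.57, 6.24 and 7.09 CPM (log2 fold change -0.79, SE 0.22, adjusted p 0.0436), and this call was lost with library totals (adjusted p 0.135) and in every fit that left out 1 library except the one without shNC replicate 2. Sec61b was at 94.8, 88.9 and 128 CPM against 66.0, 72.6 and 79.0 CPM, without overlap (log2 fold change -0.52, adjusted p 0.0655). It was the translocon gene of highest level per kb in both macrophage groups. Sec63 (log2 fold change -0.55) and Sec62 (0.03) were not called, nor were Sec11a (-0.33) and Sec11c (0.31) of the signal peptidase. With library totals Sec11c was called higher (log2 fold change 0.60, adjusted p 0.0305). Sec11a was at 95.7, 73.1 and 107 CPM against 77.8, 68.2 and 73.4 CPM, with overlapping groups.

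Both Sec23 genes fell in these cells. Sec23b was at 164, 126 and 233 CPM with shNC and at 68.6, 60.6 and 70.5 CPM with shGm26917, without overlap (log2 fold change -1.39, SE 0.23, adjusted p 0.00974). Sec23a was at 54.7, 43.5 and 65.8 CPM and at 31.8, 27.4 and 27.6 CPM, again without overlap (log2 fold change -0.92, SE 0.17, adjusted p 0.0133). Both remained called with library totals (log2 fold changes -1.09 and -0.62, adjusted p 0.0119 and 0.0297), Sec23b was lost without shGm26917 replicate 2 (adjusted p 0.0544), and Sec23a without shGm26917 replicate 2 or 3 (adjusted p up to 0.0669). Sec23b was the more abundant paralog here, at 69.7%, 69.0% and 73.1% of the Sec23 level per kb with shNC and 62.3%, 62.9% and 66.2% with shGm26917. Untreated liver had at most 17.4%, and liver with LPS, which these cells also received, had 45.4%, 55.4% and 48.8%.

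Of the Sec24 genes, Sec24d fell from 130.1, 95.5 and 139 CPM to 68.0, 58.4 and 54.7 CPM (log2 fold change -1.01, SE 0.17, adjusted p 0.0106, and -0.72, adjusted p 0.0225 with library totals). The call was lost without shGm26917 replicate 2 or 3 (adjusted p up to 0.0574). Sec24c, the most abundant of the 4 per kb, was at 202, 238 and 248 CPM against 167, 168 and 153 CPM (log2 fold change -0.50, adjusted p 0.0342), and it was not called with library totals (log2 fold change -0.20, adjusted p 0.222), nor when any single shGm26917 library or shNC replicate 3 was left out. Sec24b was at 97.0, 116 and 112 CPM against 86.3, 92.5 and 88.5 CPM and Sec24a at 51.5, 35.5 and 47.5 CPM against 43.0, 37.4 and 34.7 CPM, and neither was called (log2 fold changes -0.28 and -0.23). Sec24d went from 27.9%, 20% and 26% of the Sec24 level per kb to 19.3%, 16.9% and 17.0%, and Sec24c stayed between 43.7% and 50% in all 6 libraries. Sec16a, Sec23ip and Sec31a were called lower with log2 fold changes of -0.55, -0.58 and -0.49, but none of these calls held with library totals. Sec23ip, for example, was at 96.1, 83.4 and 113 CPM against 69.7, 61.4 and 65.2 CPM, without overlap. Each of the 3 was also lost in every fit that left out 1 library except the one without shNC replicate 2. Sar1a, Sar1b, Sec13, Sec24a, Sec24b and Sec31b had log2 fold changes from -0.31 to 0.33 and were not called.

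Of the COPI subunits among the members, 4 fell and none rose. Copg1 was at 193, 183 and 221 CPM with shNC and at 114, 125 and 109 CPM with shGm26917, without overlap (log2 fold change -0.78, SE 0.13, adjusted p 0.00928, and -0.48, adjusted p 0.0285 with library totals). Cope, the COPI gene of highest level per kb with shNC, was at 187, 167 and 194 CPM against 111, 115 and 128 CPM. Copa, Cope and Arcn1 had log2 fold changes of -0.66, -0.63 and -0.62 (adjusted p 0.0139, 0.0148 and 0.0247). With library totals these were -0.37, -0.34 and -0.33 and were not called. The Copg1 call was lost without shGm26917 replicate 3 (adjusted p 0.0516), those of Copa and Cope when any single shGm26917 library was left out, and that of Arcn1 when any single library other than shNC replicate 2 was left out. Copg2 was at 30.3, 43.1 and 26.7 CPM against 46.4, 45.5 and 43.9 CPM, not called (log2 fold change 0.44, adjusted p 0.131) but called higher with library totals (log2 fold change 0.73, adjusted p 0.0291). It made up 25.2%, 33.6% and 20.6% of the Copg level per kb with shNC and 46.7%, 43.8% and 46.4% with shGm26917, with the overlap with Mest as a limit here too. Copb1, Copb2 and Copz1 had log2 fold changes of -0.36, -0.37 and -0.11 and were not called by edgeR, while DESeq2 called Copb1 and Copb2 lower.

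In the p24 family, Tmed5, Tmed9 and Tmed2 fell and the other 6 tested genes were not called. With library totals Tmed3 and Tmed4 were called higher (log2 fold changes 0.37 and 0.57, adjusted p 0.0397 and 0.0104). Tmed5 was at 325, 220.1 and 408 CPM with shNC and at 163, 128 and 163 CPM with shGm26917 (log2 fold change -1.07, SE 0.24, adjusted p 0.0236, and -0.78, adjusted p 0.0438 with library totals). The shNC libraries differed widely, and the call held in only 1 of the 6 fits that left out a library, the one without shNC replicate 2. Tmed9 was the member of highest level per kb with shNC, at 81.9 ± 16.7 CPM per kb, next to Sec61b at 81.9 ± 16.8 CPM per kb, and these do not differ beyond their spread. Its CPM were 268, 233 and 345 against 174, 167 and 176, without overlap (log2 fold change -0.71, adjusted p 0.0267). Tmed2 had a log2 fold change of -0.71 (adjusted p 0.0369). Neither Tmed9 nor Tmed2 was called with library totals (log2 fold changes -0.42 and -0.41), and both calls were lost when any single library other than shNC replicate 2 was left out. Tmed10, which forms complexes with Tmed2, was at 276, 308 and 333 CPM against 313, 292 and 304 CPM, with overlapping groups.

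Sec22c rose from 12.9, 8.04 and 7.76 CPM to 23.5, 23.2 and 24.1 CPM (log2 fold change 1.30, SE 0.22, adjusted p 0.0102, and 1.58, adjusted p 0.00656 with library totals). Its partner in the family, Sec22b, was at 125, 82.4 and 129 CPM against 60.4, 61.6 and 71.7 CPM, without overlap (log2 fold change -0.79, SE 0.19, adjusted p 0.0287), a call lost with library totals (log2 fold change -0.50, adjusted p 0.0951) and in every fit that left out 1 library except the one without shNC replicate 2. Within each library, Sec22b counts per Sec22c count were 9.66, 10.2 and 16.6 with shNC and 2.58, 2.66 and 2.98 with shGm26917. Sec22c held 5.89%, 5.42% and 3.53% of the Sec22 level per kb with shNC and 17.7%, 17.8% and 16.1% with shGm26917. Sec22a was at 12.1 ± 0.38 and 12.4 ± 1.81 CPM. Sec14l1 rose from 87.9, 85.8 and 103 CPM to 144, 166 and 145 CPM (log2 fold change 0.72, SE 0.13, adjusted p 0.0115, and 1.01, adjusted p 0.00372 with library totals), a call lost without shGm26917 replicate 2 (adjusted p 0.0574). Sec14l4 and Sec16b, which fell in liver, were below the filter here, with no counts and with at most 5 counts in a library.

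**Figure D2:**
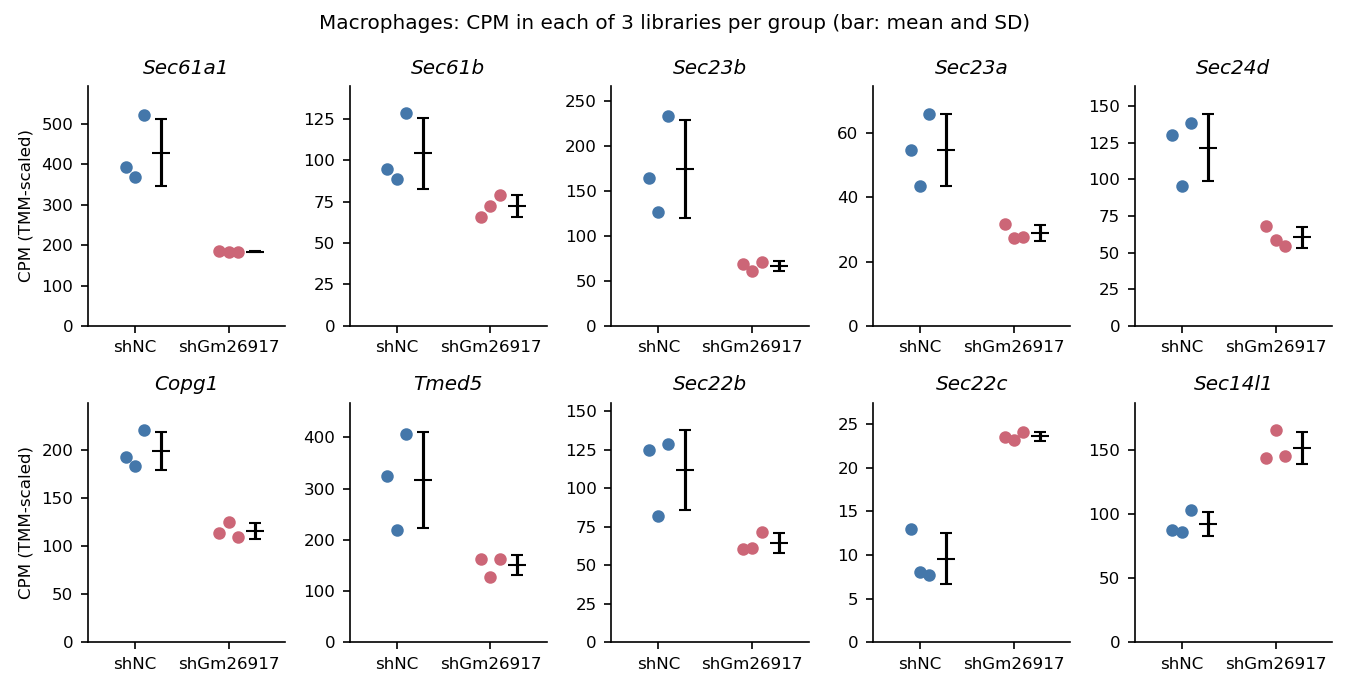
Levels of 10 members in the macrophage libraries, in CPM on TMM-scaled sizes, with 1 point per library and the mean and SD of 3 libraries beside each group. For Sec61a1 the shGm26917 libraries lie between 182 and 186 CPM and the shNC libraries between 368 and 523 CPM, and Sec22c is the other way round, with 23.2 to 24.1 CPM against 7.76 to 12.9 CPM.

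The sums of some marker sets differed between the macrophage groups too. The monocyte and macrophage markers summed to 8984 to 11370.0 CPM with shNC and 16470.0 to 25800.0 CPM with shGm26917, with 3 of 8 called higher and 1 lower. Large peritoneal macrophage markers summed to 1079 to 1202 and 1556 to 2383 CPM, with 1 of 8 called higher and none lower. The 8 markers of stellate cells, fibroblasts and mesothelium summed to 22.2 to 27.2 CPM with shNC and 3.72 to 5.10 CPM with shGm26917, with Lrat at 0, 3 of the 8 tested and none of these called. B cell markers summed to 199 to 629 and 121 to 296 CPM, which overlap, and none of 6 was called. The sums of Kupffer cell and neutrophil markers overlapped as well, with 1 marker of each set called higher. The part of these cells in the members' differences was not tested.

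**Figure D3:**
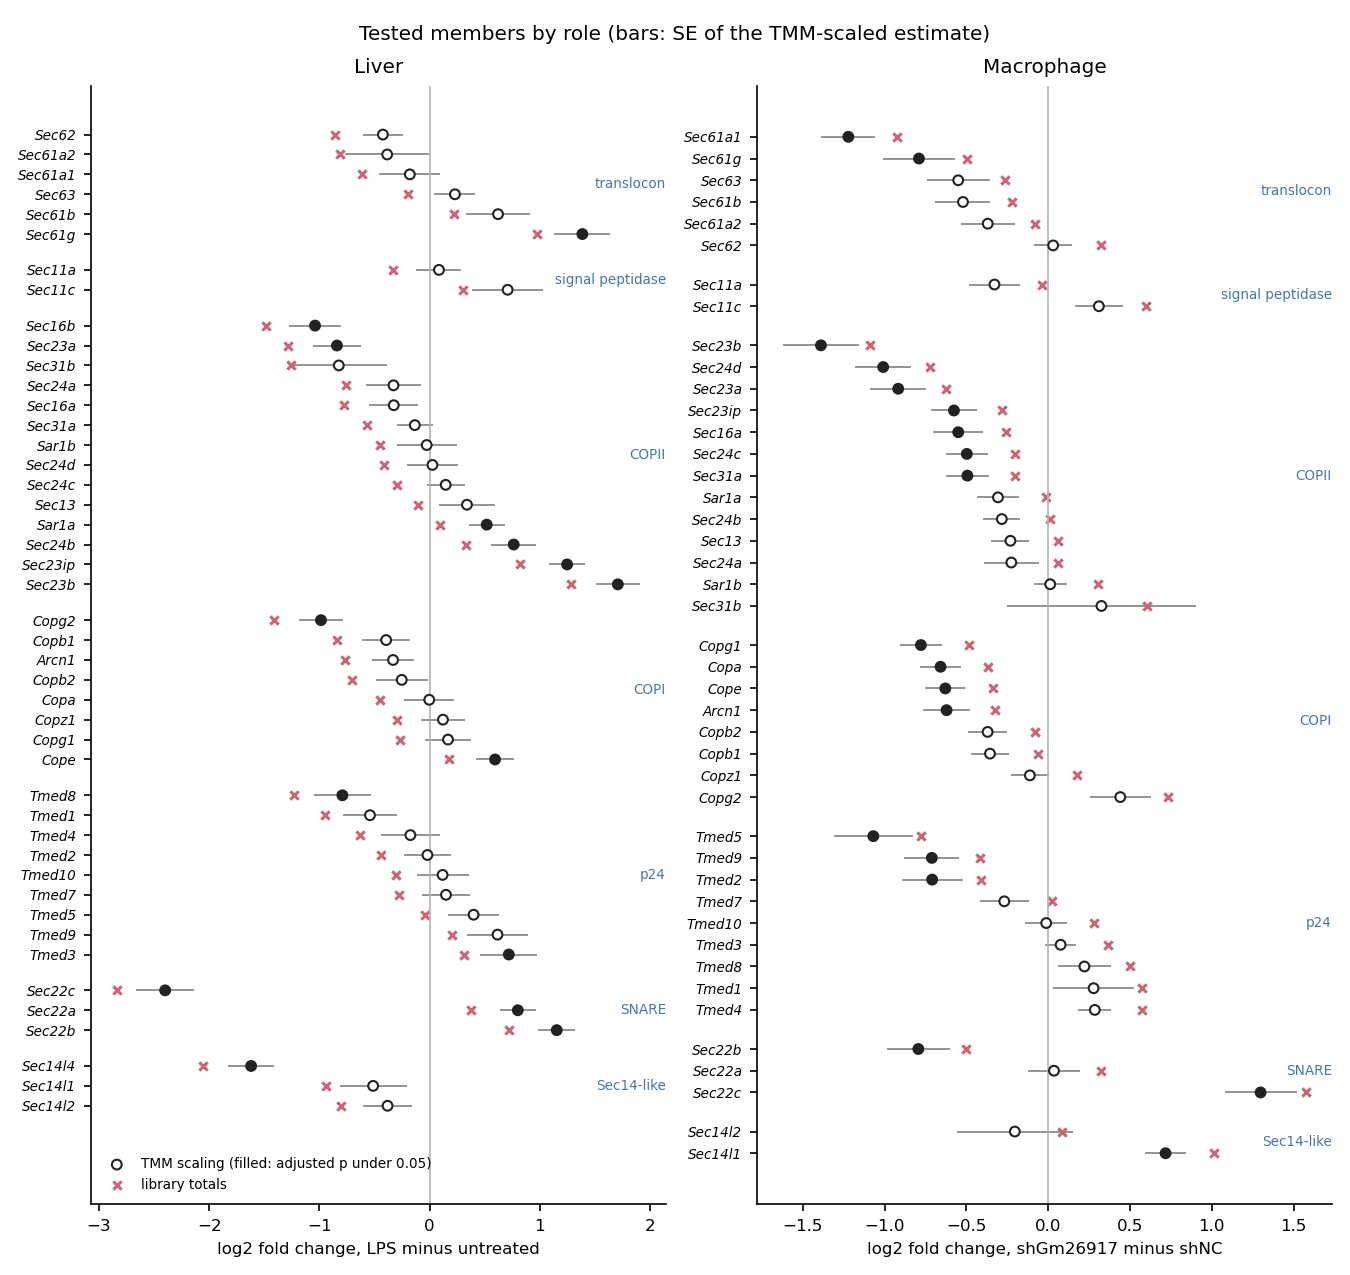
Log2 fold changes of the tested members by role, 45 in liver on the left and 43 in macrophages on the right. Circles with SE bars are TMM-scaled values, filled where called, and crosses are values with library totals, which lie lower in liver and higher in macrophages by about the shift of all genes (-0.43 and 0.29).

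Set side by side, the 2 comparisons share no library. Called higher in liver with LPS and lower in macrophages with shGm26917 were Cope, Sec22b, Sec23b, Sec23ip and Sec61g. With library totals, only Sec23b of these was still called in macrophages. The adjusted p there was 0.0878 for Cope, 0.0951 for Sec22b, 0.149 for Sec23ip and 0.135 for Sec61g. Sec22c was lower in liver and higher in macrophages, and Sec23a was lower in both. No member was higher in both, 18 were called in neither, and 5 were tested in neither. The shares of all genes with the same pairs of calls were not computed, so these counts are not a result about the members. Under both scalings and in both tissues, calls were made for Sec23b (log2 fold changes 1.71 and -1.39), Sec22c (-2.40 and 1.30) and Sec23a (-0.84 and -0.92). The comparisons differ in tissue, in treatment and in their controls, and no test of the difference between them was made.

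**Figure D4:**
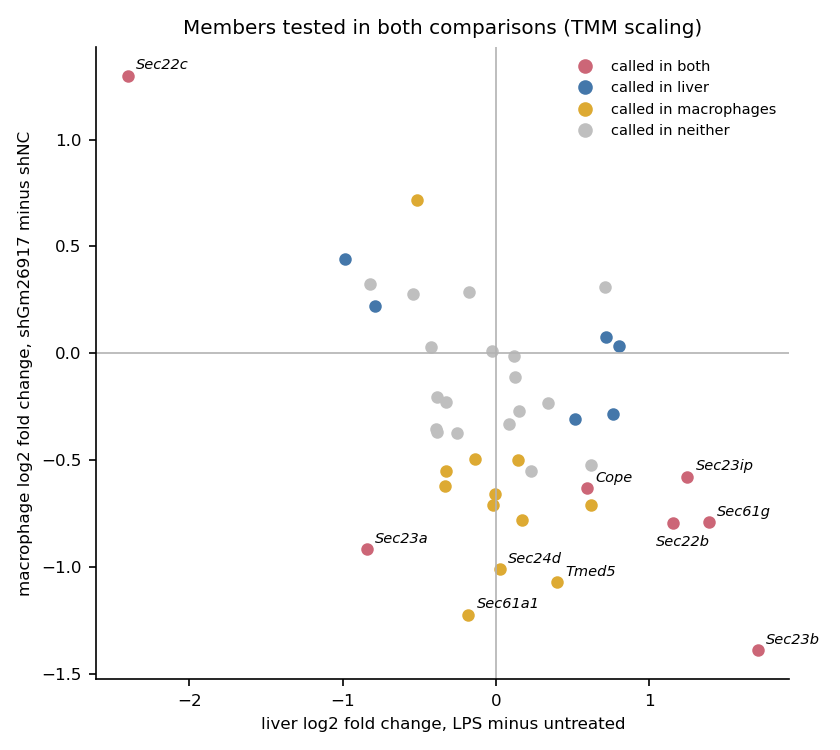
Log2 fold change of each member tested in both comparisons, in liver (horizontal axis) and in macrophages (vertical axis), TMM-scaled, coloured by where it was called. Sec14l4 and Sec16b, called lower in liver but not tested in macrophages, are not shown. Sec23b lies at the lower right at 1.71 and -1.39 and Sec22c at the upper left at -2.40 and 1.30, while all members called in neither lie within 1 log2 unit of 0 on both axes.

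**Figure D5:**
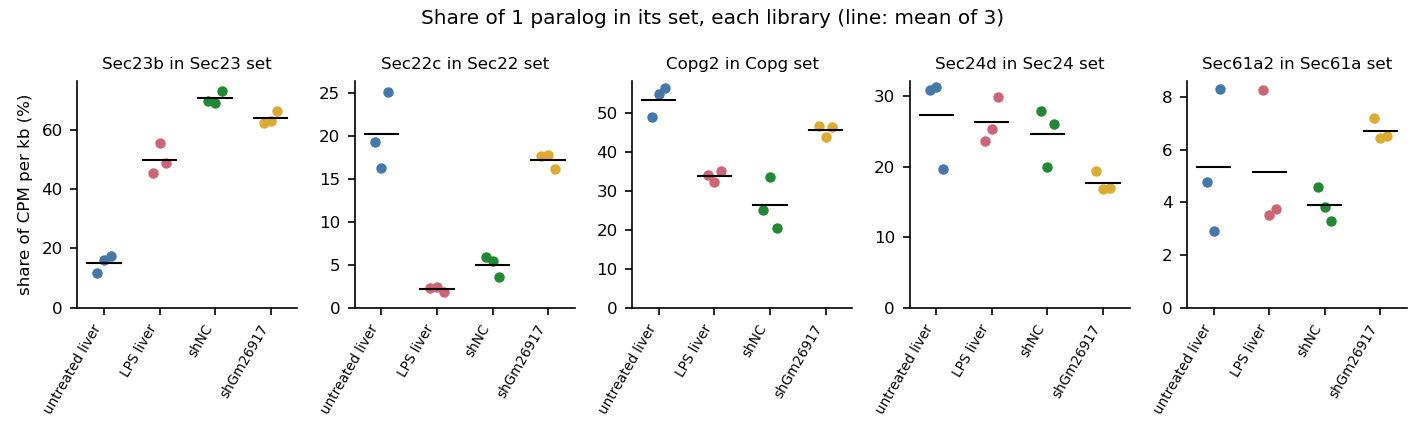
Shares of Sec23b, Sec22c, Copg2, Sec24d and Sec61a2, each in the summed level of its family per kb of exon, in percent. There is 1 point per library, a line at the mean of 3 and the 4 groups along the horizontal axis. Sec23b is at 11.6 to 17.4% in untreated and 45.4 to 55.4% in LPS-treated liver and at 62.3 to 73.1% in macrophages, and Sec22c is lowest after LPS in liver, at 1.82 to 2.45%.

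Genes that work beside these members were counted in lists of the signal recognition particle (SRP), translocon partners, oligosaccharyltransferase, ER exit and cargo receptors, and Arf cycle, tethers and SNAREs, 81 genes in all. In liver, 17 of 79 tested were higher and 8 lower (5 and 21 with library totals), beside 23.3% and 22.1% of all genes (14.0% and 38.3% with library totals). Their median log2 fold change was 0.21, or -0.19 with library totals. Stx18, an ER SNARE, rose from 10.3, 11.4 and 11.2 CPM to 86.0, 98.2 and 78.1 CPM, 7.97-fold (adjusted p 7.69e-06). Preb, the exchange factor that loads Sar1 with GTP, rose 1.96-fold and Tfg, an exit site protein, 2.04-fold. The cargo receptor Surf4 rose 1.80-fold. Under library totals Tfg was still called (adjusted p 0.0335) and Preb and Surf4 were not (adjusted p 0.0628 and 0.0711). Lman1, Mia3 and Mia2 of the same list fell 1.69-fold, 1.67-fold and 1.57-fold (adjusted p 0.0254, 0.0114 and 0.03) and stayed called with library totals. Of 20 tested genes of the ER exit and cargo receptor list, 4 were higher and 3 lower, or 1 and 7 with library totals. The Golgi stacking protein Gorasp1 fell 3.35-fold and Arfgap2, which acts on the COPI GTPase Arf1, 2.89-fold. In the SRP list Srp19 rose 2.43-fold and the receptor subunit Srprb 2.03-fold, and Srp54a fell 4.28-fold at a low level (4.27 to 0.985 CPM), where near-identical copies make its counts uncertain. The oligosaccharyltransferase genes Tmem258 and Krtcap2 (1.70-fold and 1.65-fold) and the translocon partner Ssr2 (1.51-fold) were called higher under TMM scaling and not with library totals.

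In macrophages, 1 of 81 was higher and 32 were lower (7 and 13 with library totals), beside 12.6% and 11.1% of all genes (24.3% and 6.17% with library totals). Their median log2 fold change was -0.44, or -0.15 with library totals. Surf4 fell from 937, 821 and 1162 CPM to 426, 431 and 477 CPM (2.19-fold, adjusted p 0.00822), without overlap. Ssr2, Ssr3 and Ssr1, subunits of the translocon-associated protein complex, fell 2.56-fold, 2.17-fold and 1.83-fold. The SRP receptor subunits Srpr and Srprb fell 2.33-fold and 2.08-fold, and the SRP protein Srp68 1.61-fold. Ostc, Krtcap2 and Stt3a of the oligosaccharyltransferase fell 1.94-fold, 1.82-fold and 1.72-fold. Kdelr2, a receptor that returns ER proteins, fell 1.91-fold, Yipf5 1.74-fold, Gorasp2 1.79-fold and Nbas, a tether subunit for COPI vesicles at the ER, 2.10-fold. Gorasp1 rose 1.65-fold. With library totals, Srprb, Srp68, Stt3a and Ssr1 were not called and the other genes named here were.

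In a list of unfolded protein response regulators and targets, 10 of 23 tested were higher and 2 lower in liver (7 and 3 with library totals), and 0 of 22 were higher and 13 lower in macrophages (0 and 6 with library totals). The shares of all genes called are those given above, 23.3% higher and 22.1% lower in liver and 12.6% and 11.1% in macrophages. The median log2 fold change of the list was 0.72 in liver and -0.54 in macrophages, or 0.31 and -0.25 with library totals. Xbp1, the transcription factor that drives ER expansion, rose in liver from 84.0, 139.6 and 159 CPM to 516, 671 and 696 CPM (log2 fold change 2.30, SE 0.29, adjusted p 0.000411), without overlap. Creb3l1, a membrane-bound transcription factor, and Manf, a secreted ER stress protein, rose in liver by 3.71 and 2.73 on the log2 scale (adjusted p 2.52e-05 and 0.0103). The rise of Creb3l1 started from a low level, with means of 0.886 and 11.7 CPM. Ern1 of the same list fell in liver (log2 fold change -1.29, adjusted p 0.00377, and -1.74, adjusted p 0.00126 with library totals). In macrophages Dnajb9, a co-chaperone of the ER, Manf and Creb3l1 fell, with log2 fold changes of -1.90, -1.65 and -1.57 (adjusted p 0.00499, 0.00614 and 0.0424). Creb3l1 was not called there with library totals (adjusted p 0.0656). Xbp1 in macrophages was at 291, 283 and 390.4 CPM against 263, 254 and 254 CPM and was not called (log2 fold change -0.32, adjusted p 0.182). Creb3l3, a membrane-bound factor of the hepatocyte ER, fell in liver from 335, 293 and 246 CPM to 164, 200.5 and 211 CPM (log2 fold change -0.60, adjusted p 0.0456).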

How the data were processed

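The deposited tables, 1 per library, hold raw counts of reads for each Ensembl gene, per the file headers, with no normalization. STAR, featureCounts 1.6.3 and mm10 are named in the submitters' processing notes. Aligner settings, annotation release, strand and multi-mapping rules are not given in the sources consulted, nor is what the word combined means in the macrophage headers. There were 49585 IDs for liver and 55401 for macrophages, so each tissue was fitted alone, and 49326 and 55141 of them matched a symbol.

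Genes were kept with filterByExpr, library sizes scaled by TMM, and differences tested with edgeR 4.0.16 (quasi-likelihood F test, 2-sided, R 4.3.3), with Benjamini-Hochberg adjustment over all genes tested in a tissue. The SE was derived from the log2 fold change and its F statistic, and levels are CPM, mean ± SD, n = 3. The fit was also run on simulated counts that had the same dispersion for every gene and no difference in scaling between groups. That run differs from the real libraries in both respects and gives no check on the calls made here. Alternatives were library totals, DESeq2 1.42.0 and its size factors in edgeR, no filter, 1 CPM in at least 3 libraries, all 12 libraries in 1 fit, a replicate block, and each library left out. Levels per kb divide CPM by the summed exon length of GENCODE M21 (GRCm38), which also gave overlaps and coding sequences. The order of members per kb and the paralog shares depend on these annotated lengths. Paralogs were compared by the longest open reading frame of their transcripts, in place of proteins. Promoters are RefSeq, GRCm38.p6.

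The members, the gene lists and the tests were chosen with earlier results of these data known. Values in every library are given for members called with a log2 fold change of 1 or more in size, for most of their paralogs and genes of highest level per kb in a role, and for further members chosen after their values were seen. Other members are given by mean, fold or range. Outside the members, the 3 called genes of largest change per list are named, with Xbp1 and Creb3l3. In liver Lman1, Mia3, Mia2, Ern1 and Copz2 were added after their values were seen.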

Additional observations from a re-analysis of the deposited data

How the results depend on the processing

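With library totals, 4 liver members were higher and 15 lower, with a median log2 fold change of -0.44, and 6 macrophage members were higher and 6 lower, with a median of -0.063. No called value changed sign under an alternative. In macrophages, fitting all 12 libraries together left 1 member higher, and without a filter the median was -0.31. Leaving out each macrophage library in turn gave 1 to 5 members higher, 2 to 26 lower and medians from -0.45 to -0.30, and the cause was not tested. In liver the same fits gave 6 to 10 members higher and 4 to 6 lower. Under DESeq2, its size factors in edgeR, the 1 CPM filter and the replicate block, the counts of called members stayed within 1.5 times those reported. Without a filter, 8 liver members were higher and 5 lower and 13 macrophage members were lower.

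The deviations of same-numbered libraries from their group means correlated at 0.12, 0.05 and -0.08 in liver and -0.04, 0.24 and 0.18 in macrophages. These values show no clear pairing by replicate number. They cannot exclude it, because no reference for paired libraries is at hand and the labels do not settle it. With the replicate number as a block, 10 liver members were higher and 5 lower, with a median of 0.03, and 2 macrophage members were higher and 13 lower, with a median of -0.35.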
